A study of Mus musculus with 4 samples.

Results

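The mitochondrial ribosomal protein genes were examined in bone marrow natural killer (NK) cells, lymphocytes of innate immunity that lyse infected or tumour cells. The genes were taken by symbol, Mrpl or Mrps followed by a number and, for some, a letter a to c. The pattern found 76 genes among the 37310 genes listed, 47 with the symbol Mrpl (large subunit of the mitochondrial ribosome) and 29 with the symbol Mrps (small subunit). The dKO libraries came from Gabpb1l-/-Gabpb2-/- mice (n = 2), in which the long Gabpb1 form and Gabpb2 are both deleted. Their littermates, labelled Ctrl with no allele given, supplied the other libraries (n = 2). All mice were C57BL/6 aged 6~8 weeks, and no agent or Cre driver is named in the labels. The sort took CD3e- NK1.1+ CD49b+ cells straight into Trizol, and RNA-seq libraries followed Smart-seq2, a full-length cDNA protocol.

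Mitochondrial ribosomal proteins are encoded in the nucleus, made in the cytosol and imported. In the mitochondrion they assemble on the mitochondrial ribosomal RNAs mt-Rnr1 (small subunit) and mt-Rnr2 (large subunit), and the finished ribosome translates the mitochondrial messenger RNAs, which encode core subunits of the respiratory chain and ATP synthase. GABP is an Ets-family transcription factor whose alpha subunit, Gabpa, binds DNA at the Ets core GGAA, and whose beta subunits activate transcription. The long Gabpb1 form and Gabpb2 carry a leucine zipper through which paired alpha and beta subunits join as a tetramer, and GABP, also called nuclear respiratory factor 2, is known for sites in promoters of genes for mitochondrial proteins. The comparison of dKO with Ctrl asked whether RNA of the mitochondrial ribosome differs in NK cells without the zipper-bearing beta subunits.

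The letters CGGAAG, which hold the Ets core GGAA, were common in the promoters of these genes. RefSeq promoters on GRCm38.p6, from 250 bases before to 50 after each gene start, matched 67 of the 76 genes with 73 promoters. The core CGGAAG, searched on both strands (CTTCCG on the other), was present in 38 of the 73 promoters (52.1%), against 16.9% of all 32851 promoters of the table and 29.6% of the 11705 promoters of genes tested here. Among all promoters with a GC content between 53.0% and 64.3%, the interquartile range of these genes, the share was 24.4%. The longer CCGGAAGT (ACTTCCGG on the other strand), which contains the core, was present in 12 promoters (16.4%), against 3.89% of all promoters and 7.63% of promoters of tested genes. At least 2 cores were found in 15 promoters (20.5%) of 14 genes, against 4.15% of all promoters and 8.76% of promoters of tested genes. By subunit, the core was in 22 of 46 large-subunit promoters (47.8%) and 16 of 27 small-subunit promoters (59.3%). These shares are descriptions of letters, with no test, and a match is not a bound site.

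The promoters of 6 genes are printed 5′ to 3′ in the direction of the gene, with every core in capitals. Mrps18a was chosen for its cores directly side by side, Mrps16 for its 4 cores, Mrpl27 and Mrpl43 for a pair of cores of which 1 lies in the longer motif, Mrps26 for the smallest p-value of the set, and Mrps5 for a RefSeq window with no core. By its GRCm38 gene position Mrps5 starts inside that window, at base 127587222, so the bases before that start were searched only in part.
Mrps18a (chr17:46110754-46111053, plus strand): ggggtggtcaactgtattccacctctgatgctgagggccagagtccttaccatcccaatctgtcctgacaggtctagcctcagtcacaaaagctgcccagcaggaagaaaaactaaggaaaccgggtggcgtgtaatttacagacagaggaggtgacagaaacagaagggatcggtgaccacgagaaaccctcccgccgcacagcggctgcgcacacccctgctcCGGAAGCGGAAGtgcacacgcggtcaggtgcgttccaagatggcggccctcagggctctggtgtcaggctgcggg
Mrps16 (chr14:20393441-20393740, minus strand): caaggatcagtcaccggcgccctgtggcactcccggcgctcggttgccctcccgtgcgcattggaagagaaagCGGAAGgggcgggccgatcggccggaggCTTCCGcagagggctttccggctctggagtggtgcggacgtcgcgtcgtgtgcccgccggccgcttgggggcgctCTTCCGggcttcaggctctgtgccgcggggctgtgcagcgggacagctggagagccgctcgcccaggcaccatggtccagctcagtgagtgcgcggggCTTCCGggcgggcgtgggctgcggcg
Mrpl27 (chr11:94653541-94653840, plus strand): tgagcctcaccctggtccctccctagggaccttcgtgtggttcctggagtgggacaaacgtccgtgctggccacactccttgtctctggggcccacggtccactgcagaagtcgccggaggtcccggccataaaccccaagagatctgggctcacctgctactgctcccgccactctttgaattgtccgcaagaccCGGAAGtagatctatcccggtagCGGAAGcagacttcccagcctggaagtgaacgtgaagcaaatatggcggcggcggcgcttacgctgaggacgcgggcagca
Mrpl43 (chr19:45006393-45006692, minus strand): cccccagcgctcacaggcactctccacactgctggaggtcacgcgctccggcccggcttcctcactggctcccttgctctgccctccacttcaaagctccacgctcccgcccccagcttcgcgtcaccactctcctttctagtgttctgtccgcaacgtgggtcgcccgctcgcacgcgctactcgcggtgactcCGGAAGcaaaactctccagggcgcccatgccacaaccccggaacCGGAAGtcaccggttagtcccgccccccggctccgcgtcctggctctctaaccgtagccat
Mrps26 (chr2:130563507-130563806, plus strand): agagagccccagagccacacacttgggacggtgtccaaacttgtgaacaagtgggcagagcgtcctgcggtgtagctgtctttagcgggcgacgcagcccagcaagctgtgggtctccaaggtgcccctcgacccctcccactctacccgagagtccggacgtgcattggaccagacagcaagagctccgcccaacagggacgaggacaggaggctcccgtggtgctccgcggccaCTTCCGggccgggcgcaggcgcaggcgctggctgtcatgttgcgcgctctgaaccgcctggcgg
Mrps5 (chr2:127587176-127587475, plus strand): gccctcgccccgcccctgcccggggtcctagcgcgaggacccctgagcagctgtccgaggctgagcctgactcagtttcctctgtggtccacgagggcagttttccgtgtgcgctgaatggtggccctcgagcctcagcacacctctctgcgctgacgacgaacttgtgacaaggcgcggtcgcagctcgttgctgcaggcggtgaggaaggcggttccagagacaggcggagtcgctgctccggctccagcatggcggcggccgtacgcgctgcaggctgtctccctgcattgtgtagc
In Mrps18a the cores start 25 and 19 bases before the gene start, so that 1 ends where the next begins. In the printed window of Mrps16 they start at 177, 149 and 74 bases before its RefSeq start and 24 bases after it. By its GRCm38 gene position Mrps16 starts at base 20393634, inside that window and upstream of that RefSeq start. Its second RefSeq window, not printed, holds 3 cores. In Mrpl27 the cores start 54 and 31 bases before the gene start and in Mrpl43 55 and 11 bases before it. In Mrps26 the single core starts 14 bases before the gene start.

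Counted in each promoter window, 46 of 58 core matches (79.3%) lay between 100 bases before and 50 bases after the gene start, against 67.7% of 7314 matches in all promoters. Windows of 1 gene can overlap, and the 58 matches are 56 places in the genome. The other 2 are cores of Mrps16 that also lie in its second window, where they start 33 and 5 bases before the start. Mrpl46 and Mrps11, a large-subunit and a small-subunit gene, start 42 bases apart in opposite directions, and their promoter windows share 141 bases with no core.

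**Figure D1:**
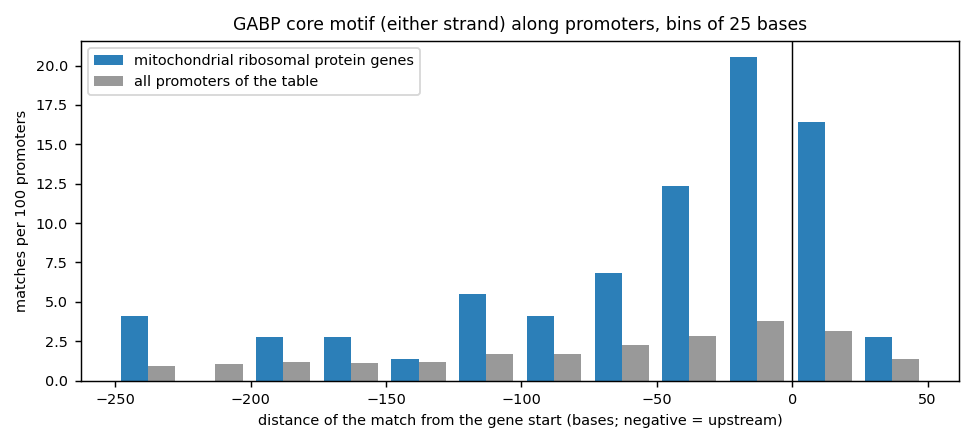
Matches of the core CGGAAG on either strand per 100 promoters (y axis) by distance from the gene start in bases (x axis, bins of 25 bases). Blue marks the 73 promoters of mitochondrial ribosomal protein genes and grey all 32851 promoters of the table. The tallest blue bar, 20.5 matches per 100 promoters, is the bin just before the start, where all promoters had 3.77.

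The 4 libraries held 30233870 to 34724516 counts in genes, and the log2 CPM of library pairs correlated between 0.948 and 0.973 across genes. The dKO pair was at 0.973, and the Ctrl pair, at 0.9609, was no higher than dKO 1 with Ctrl 2 (0.9614). Ctrl 1 with dKO 1 was lowest. Detected genes came to 19450 (dKO 1), 19220 (dKO 2), 15921 (Ctrl 1) and 18206 (Ctrl 2). Reads outside genes were 23.8% and 24.3% in dKO, against 18.1% and 21.5% in Ctrl. The part of these library differences in the fold changes was not tested. In CPM (counts over TMM-scaled library totals), Gabpb2 had 2.64 and 2.85 CPM in the dKO libraries, against 36.5 and 30.4 CPM in the Ctrl libraries (log2 fold change -3.61, SE 0.26, edgeR adjusted p = 0.00126), low in both dKO libraries. Gabpb1 had 81.2 and 79.4 CPM in the dKO libraries, against 57.1 and 52.04 CPM in the Ctrl libraries (log2 fold change 0.56, SE 0.17, adjusted p = 0.273 in edgeR), a count that cannot separate the long form, and Gabpa had 102 and 98.4 CPM in the dKO libraries, against 81.6 and 80.8 CPM in the Ctrl libraries (log2 fold change 0.30, SE 0.16, adjusted p = 0.578 in edgeR). All 9 NK markers were present with 0 called, and their CPM summed to 12920 and 12768 in dKO, against 15454 and 15827 in Ctrl. For 6 of the 9 (66.7%) both dKO values were below both Ctrl values in CPM, against 19.9% of all genes tested. The other 3 overlapped. The 7 T cell markers summed to 45.7 and 72.3 CPM in dKO, against 194 and 208 CPM in Ctrl, and 2 of them, Cd3e and Trac, were called lower in dKO. The 8 neutrophil and precursor markers summed to 656 and 974 CPM in dKO, against 1261 and 1336 CPM in Ctrl. Of these, 0 were called, as were 0 of 6 B cell, 0 of 3 monocyte and macrophage and 0 of 4 erythroid markers. Calls were few over all 13904 genes tested, 0.316% higher and 0.295% lower, so 0 calls in such short lists says little. The log2 fold change was negative for 7 of the 8 neutrophil and precursor markers, all 6 B cell and all 4 erythroid markers. It was positive for all 3 monocyte and macrophage markers. An unadjusted edgeR p under 0.05 was found for 3 neutrophil and precursor (37.5%) and 2 B cell markers (33.3%), against 10.6% of all genes. Xist was near 0 in both dKO libraries and the Y-linked genes were at 0 in both Ctrl libraries, so the sex of the animals and the genotype cannot be told apart. None of the mitochondrial ribosomal protein genes lies on X or Y, and the part of the marker differences in their values was not tested.

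RNA of the mitochondrial ribosome was not detectably different between dKO and Ctrl NK cells at this number of libraries. A filter for expressed genes kept 74 of the 76 genes, 46 of the large and 28 of the small subunit. Of these, 0 were called higher and 0 lower in dKO (edgeR quasi-likelihood test, Benjamini-Hochberg adjusted p under 0.05), with adjusted p from 0.593 to 0.997. Over all 13904 genes tested, 0.316% were called higher and 0.295% lower. At an unadjusted p under 0.05 the count was again 0 of 74, against 10.6% of all genes. DESeq2 and limma-voom also called 0 of the 74, against 2.86% and 0.654% of all genes. In sorted cells measured in bulk, fewer cells of a type and less RNA per cell cannot be told apart.

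The fold changes lay near 0. The log2 fold change of dKO over Ctrl had a median of -0.059 over the 74 genes, with quartiles of -0.18 and 0.05, against a median of 0.014 and quartiles of -0.23 and 0.30 over all genes tested. It was positive for 28 genes and negative for 46, with 50 positive when Ctrl replicate 1 was left out and 18 when Ctrl replicate 2 was left out. The range ran from -0.62 for Mrps36 to 0.61 for Mrpl54, which are among the least abundant of the set. For 65 of the 74 genes the 95% interval of the fold change lay within 2-fold in both directions, as it did for 7276 of all 13904 genes. The intervals of Mrpl13, Mrpl20, Mrpl22, Mrpl45, Mrpl52, Mrpl54, Mrps22, Mrps28 and Mrps36 reached past 2-fold. A miss of the threshold does not show that a gene was equal in both groups, and an exact permutation of 2 against 2 libraries cannot give a p below 0.333.

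**Figure D2:**
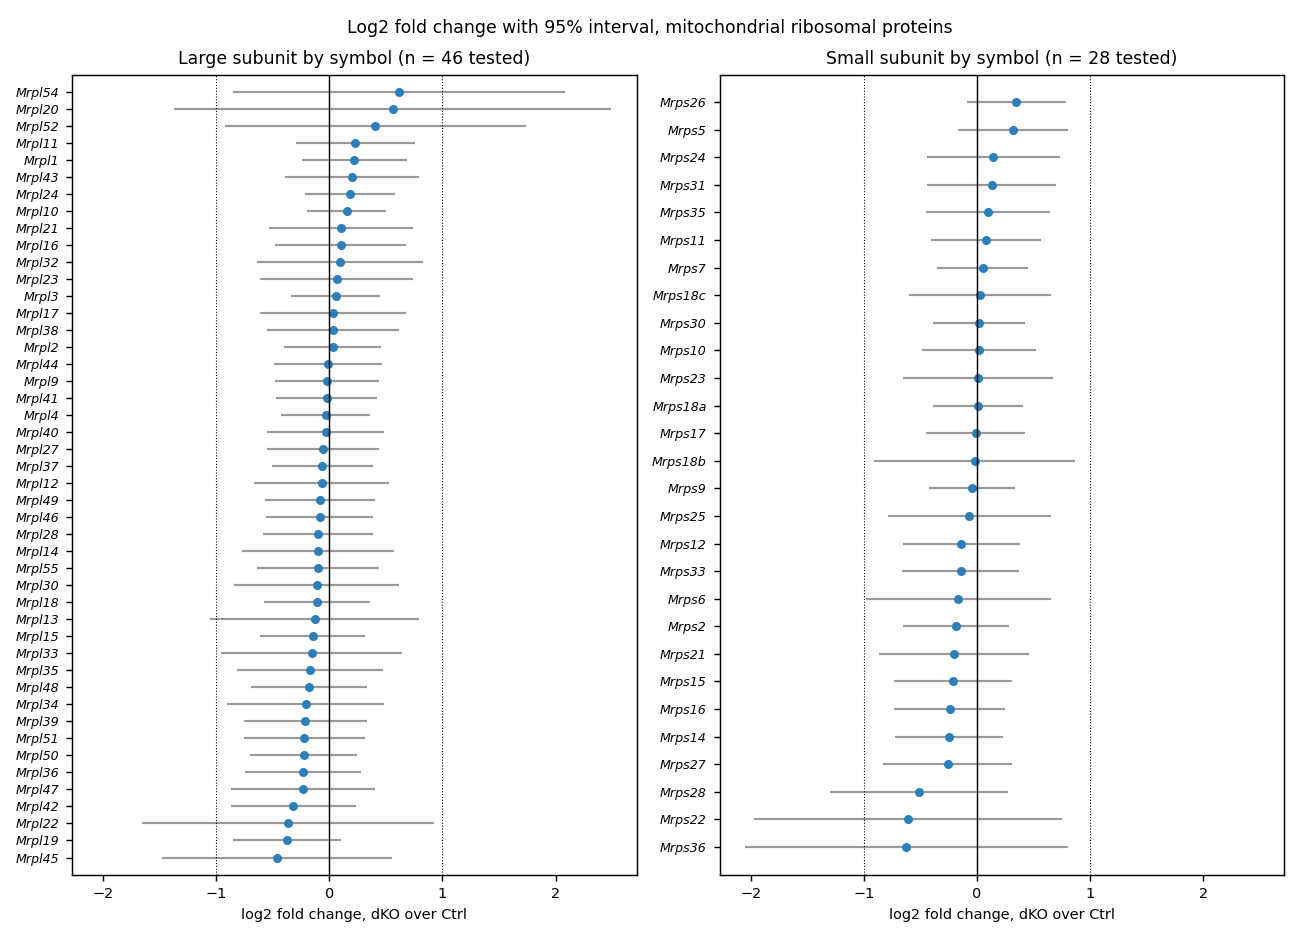
Log2 fold change of dKO over Ctrl (x axis, points) with its 95% interval from the edgeR fit (grey lines) for each tested gene, with 46 large-subunit genes on the left and 28 small-subunit genes on the right. The dotted lines mark 2-fold in each direction, and every interval includes 0.

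The medians of the large and the small subunit lay close together. The median log2 fold change was -0.065 over the large-subunit genes and -0.034 over the small-subunit genes, a difference of -0.031. Without Ctrl replicate 1 the medians were 0.095 and 0.044, and without dKO replicate 2 they were -0.141 and -0.150. The difference was 0.046 with the RSEM expected counts and -0.001 when Mrps18a and Mrps30, which sit in the large subunit of the mammalian particle despite their symbols, were counted there. The summed large-subunit level divided by the summed small-subunit level, in TPM (a level scaled by gene length to a fixed total per library), was 1.69 and 1.55 in the dKO libraries, against 1.55 and 1.57 in the Ctrl libraries. dKO 1 alone stood above the other 3 libraries, and in CPM the ratio was 1.76 and 1.77 in dKO, against 1.80 and 1.76 in Ctrl.

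All 76 genes together came to 4915 and 5158 TPM in the dKO libraries, against 5356 and 4757 TPM in the Ctrl libraries. The means were 5036 ± 172 TPM in dKO and 5056 ± 423 TPM in Ctrl (SD, n = 2 each). Both dKO sums lay between the Ctrl sums. The genes took 0.491% and 0.516% of all TPM in dKO, against 0.536% and 0.476% in Ctrl. Without the 5 genes of the highest TPM the means were 4026 ± 170.4 TPM in dKO and 4031 ± 309 TPM in Ctrl.

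Single genes ranged widely in level. The mean TPM over the 4 libraries ran from 1.82 for Mrpl20 to 228 for Mrpl10, with a median of 56.7 (58.5 for the large and 54.9 for the small subunit). In all, 19 genes had a mean of at least 100 TPM and 13 had less than 10 TPM. Mrpl10, a protein of the flexible stalk that takes part in recruiting translation factors, had 252 and 229.5 TPM in the dKO libraries, against 202 and 229.5 TPM in the Ctrl libraries. Mrpl24, a large-subunit protein, had 236 and 228 TPM in the dKO libraries, against 214 and 195 TPM in the Ctrl libraries. Both are at the top of the large subunit, and the values of Mrpl10 overlap those of Mrpl24. Within each gene neither dKO value was below a Ctrl value, and for Mrpl10 dKO 2 and Ctrl 2 were almost equal. The exons of Mrpl10 overlap Gm11574 and those of Mrpl24 overlap Rrnad1 on GRCm38, so some of their reads are uncertain. Such an overlap with another annotated gene was found for 31 of the 75 genes placed on GRCm38.

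Mrpl36, the counterpart of bacterial L36, was next there with 175 and 189 TPM in the dKO libraries, against 239 and 178 TPM in the Ctrl libraries. In the small subunit Mrps15 led with 173 and 201 TPM in the dKO libraries, against 279.8 and 183 TPM in the Ctrl libraries. Mrps15 was spread more widely over the Ctrl libraries than over the dKO libraries, and its groups overlapped. Mrps18a followed with 173 and 164 TPM in the dKO libraries, against 171 and 159 TPM in the Ctrl libraries, and Mrps14 with 129 and 163 TPM in the dKO libraries, against 193 and 154 TPM in the Ctrl libraries. All 4 values of Mrps15 lay above all 4 of Mrps18a, by a narrow margin, while Mrps14 overlapped both.

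**Figure D3:**
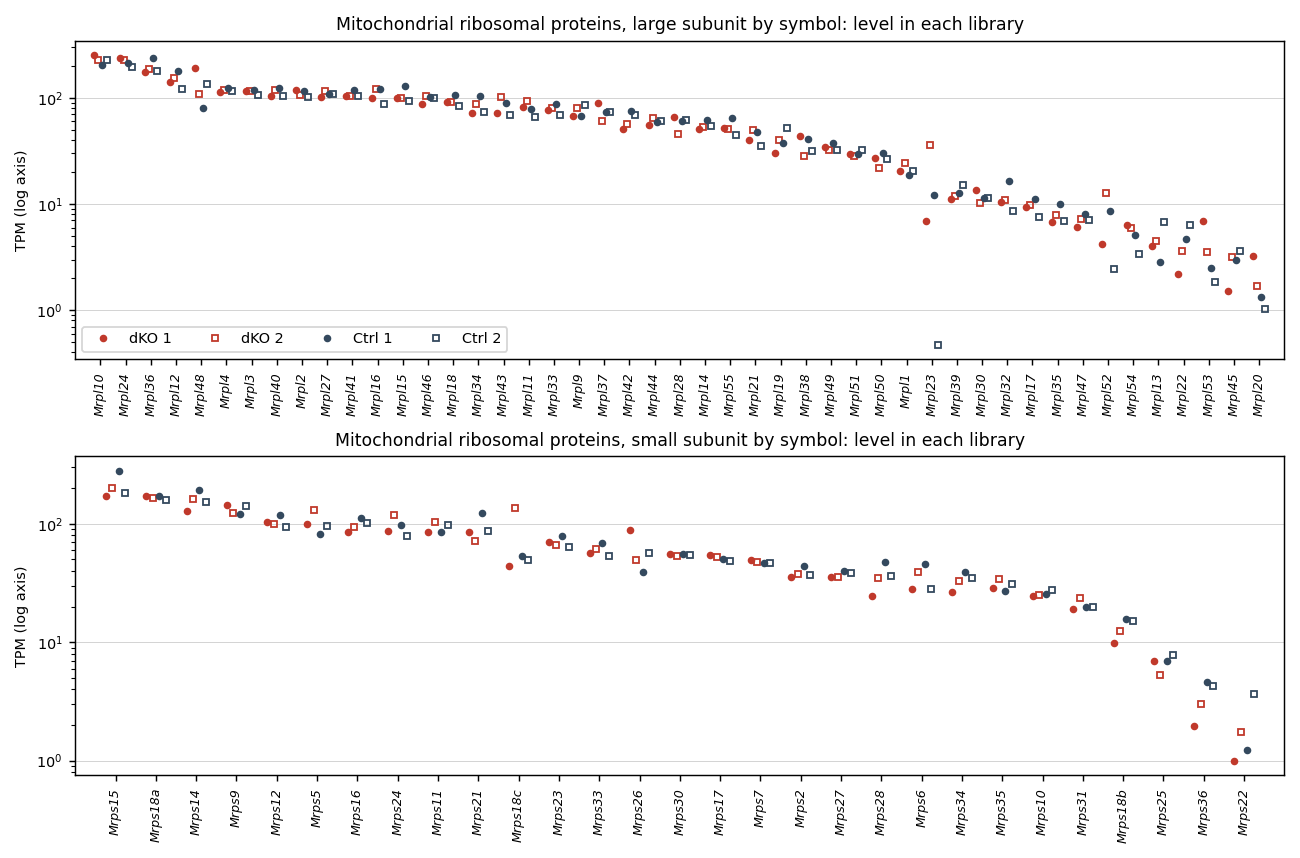
Level of each of the 76 genes in TPM (y axis, log scale) in the 4 libraries, in order of mean level, with the large subunit above and the small subunit below. Red marks dKO and blue Ctrl, with filled circles for replicate 1 and open squares for replicate 2. For most genes the 4 marks lie close together, and Mrpl23, with 0.47 TPM in Ctrl 2 and 36.2 TPM in dKO 2, is spread the widest.

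Both dKO libraries lay above both Ctrl libraries, in CPM, for 6 of the 74 genes (8.11%), against 21.7% of all genes tested. These 6 were Mrpl1, Mrpl10, Mrpl20, Mrpl24, Mrpl54 and Mrps26. Both dKO libraries lay below both Ctrl libraries for 10 genes (13.5%), against 19.9% of all genes: Mrpl19, Mrpl22, Mrpl30, Mrpl39, Mrpl42, Mrpl50, Mrps9, Mrps16, Mrps27 and Mrps36. The other 58 overlapped. For 11 of the 74 genes (14.9%) the difference between group means was larger than both gaps between replicates, against 29.4% of all genes.

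Among small-subunit genes, Mrps26 (GRCm38 chr2:130563742-130568695, plus strand) had the smallest p of the whole set (0.103). It had 77.9 and 66.3 CPM in the dKO libraries, against 51.2 and 62.04 CPM in the Ctrl libraries (log2 fold change 0.35, SE 0.19, adjusted p = 0.593 in edgeR). Both dKO values were above both Ctrl values, but the difference did not pass. In TPM the groups overlapped, with 88.7 and 49.1 TPM in the dKO libraries, against 39.5 and 56.2 TPM in the Ctrl libraries. Mrps5 (chr2:127587222-127606829, plus strand), which corresponds to bacterial S5 at the messenger entry site, was next with 81.6 and 104 CPM in the dKO libraries, against 85.2 and 63.7 CPM in the Ctrl libraries (log2 fold change 0.32, SE 0.21, adjusted p = 0.678 in edgeR). Its lower dKO value was below the higher Ctrl value. Its head-to-head neighbour Zfp661, whose start lies 128 bases away, had a log2 fold change of 0.30 and did not pass (adjusted p = 0.841 in edgeR).

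Mrps5 and Mrps26 lie on the same chromosome as Gabpb1, 0.911 and 3.89 Mb from it. On chromosome 3, Mrps21 lies 0.645 Mb and Mrpl9 0.731 Mb from Gabpb2. Mrps21, a homologue of bacterial S21, had 13.7 and 12.8 CPM in the dKO libraries, against 18.5 and 12.02 CPM in the Ctrl libraries (log2 fold change -0.20, SE 0.29, adjusted p = 0.878 in edgeR). Mrpl9 had 59.2 and 75.9 CPM in the dKO libraries, against 61.997 and 74.8 CPM in the Ctrl libraries (log2 fold change -0.018, SE 0.20, adjusted p = 0.991 in edgeR). Both genes overlapped between the groups. The log2 fold change was 0.14 for Mrps21 without Ctrl replicate 1 and 0.15 for Mrpl9 without dKO replicate 1.

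Mrps28 had 7.06 and 11.9 CPM in the dKO libraries, against 15.9 and 11.2 CPM in the Ctrl libraries (log2 fold change -0.51, SE 0.34, adjusted p = 0.679 in edgeR), and the groups overlapped. Mrps14, a homologue of bacterial S14, had 41.04 and 53.7 CPM in the dKO libraries, against 60.6 and 51.9 CPM in the Ctrl libraries (log2 fold change -0.25, SE 0.21, adjusted p = 0.760 in edgeR), and its higher dKO value was above the lower Ctrl value. Mrps16, whose promoter with 4 cores is printed above, had 21.004 and 22.6 CPM in the dKO libraries, against 27.5 and 24.1 CPM in the Ctrl libraries (log2 fold change -0.24, SE 0.21, adjusted p = 0.777 in edgeR). All dKO values of Mrps16 were below all Ctrl values, by less than the gap between the Ctrl libraries at the nearest pair.

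Mrps27, a pentatricopeptide repeat protein, had 13.1 and 15.5 CPM in the dKO libraries, against 18.5 and 15.7 CPM in the Ctrl libraries (log2 fold change -0.26, SE 0.25, adjusted p = 0.798 in edgeR), with its groups only just apart. Mrps15 had 76.6 and 89.5 CPM in the dKO libraries, against 116 and 75.9 CPM in the Ctrl libraries (log2 fold change -0.21, SE 0.23, adjusted p = 0.826 in edgeR), and Ctrl 1 stood above the other 3 libraries. Mrps12, the counterpart of bacterial S12 at the decoding centre, had 25.98 and 29.2 CPM in the dKO libraries, against 34.5 and 26.2 CPM in the Ctrl libraries (log2 fold change -0.14, SE 0.22, adjusted p = 0.898 in edgeR). Its groups overlapped, and its head-to-head neighbour Sars2, the mitochondrial seryl-tRNA synthetase gene 172 bases away, had a log2 fold change of -0.12 (edgeR adjusted p = 0.943).

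In the whole-number counts, the paralogues of bacterial S18 had log2 fold changes near 0. Mrps18a had 67.4 and 70.8 CPM in the dKO libraries, against 72.95 and 64.4 CPM in the Ctrl libraries (log2 fold change 0.009, SE 0.17, adjusted p = 0.995 in edgeR). Mrps18b had 3.703 and 4.24 CPM in the dKO libraries, against 4.64 and 3.405 CPM in the Ctrl libraries (log2 fold change -0.020, SE 0.39, adjusted p = 0.996 in edgeR). In TPM the Mrps18b groups were apart, with 9.91 and 12.5 TPM in the dKO libraries, against 15.8 and 15.01 TPM in the Ctrl libraries. Its log2 fold change in the fit on RSEM expected counts was -0.54 (SE 0.39, adjusted p = 0.707 in edgeR). Mrps18c had 11.1 and 15.1 CPM in the dKO libraries, against 13.6 and 12.2 CPM in the Ctrl libraries (log2 fold change 0.024, SE 0.27, adjusted p = 0.991 in edgeR). All 3 overlapped between the groups in CPM. Mrps30, a large-subunit protein by structure, had 51.2 and 49.8 CPM in the dKO libraries, against 51.9 and 47.8 CPM in the Ctrl libraries and overlapped as well (log2 fold change 0.019, SE 0.18, adjusted p = 0.989 in edgeR).

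Mrps22 and Mrps36 were the least abundant tested small-subunit genes. Mrps22, in which human mutations cause a mitochondrial translation defect, had 1.68 and 1.59 CPM in the dKO libraries, against 1.44 and 3.56 CPM in the Ctrl libraries (log2 fold change -0.61, SE 0.59, adjusted p = 0.801 in edgeR). Ctrl 2 alone was high for Mrps22. Mrps36, now also called Kgd4 and known as a subunit of the 2-oxoglutarate dehydrogenase complex rather than of the ribosome, had 1.06 and 1.03 CPM in the dKO libraries, against 1.47 and 1.75 CPM in the Ctrl libraries (log2 fold change -0.62, SE 0.62, adjusted p = 0.806 in edgeR). Its groups were apart, at levels near 1 CPM where the interval of the log2 fold change ran from -2.05 to 0.80.

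In the large subunit, Mrpl19 (GRCm38 chr6:81957851-81965958, minus strand) had the smallest p (0.107), with 22.3 and 25.5 CPM in the dKO libraries, against 30.7 and 31.3 CPM in the Ctrl libraries (log2 fold change -0.37, SE 0.21, adjusted p = 0.599 in edgeR). Both dKO values were below both Ctrl values in CPM, while in TPM they overlapped, with 30.5 and 40.2 TPM in the dKO libraries, against 37.6 and 51.7 TPM in the Ctrl libraries. Mrpl42 had 15.2 and 18.8 CPM in the dKO libraries, against 22.6 and 19.7 CPM in the Ctrl libraries (log2 fold change -0.32, SE 0.24, adjusted p = 0.731 in edgeR). Mrpl50 had 30.3 and 28.1 CPM in the dKO libraries, against 37.1 and 31.2 CPM in the Ctrl libraries (log2 fold change -0.23, SE 0.20, adjusted p = 0.784 in edgeR). In both genes the dKO values were the lower ones, without passing.

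Mrpl1, the counterpart of the L1 stalk protein, had 36.5 and 45.9 CPM in the dKO libraries, against 35.3 and 35.3 CPM in the Ctrl libraries (log2 fold change 0.22, SE 0.20, adjusted p = 0.785 in edgeR). Mrpl24 had 82.99 and 82.1 CPM in the dKO libraries, against 79.001 and 66.4 CPM in the Ctrl libraries (log2 fold change 0.18, SE 0.17, adjusted p = 0.794 in edgeR), and Mrpl10 had 159.7 and 167 CPM in the dKO libraries, against 140.3 and 153 CPM in the Ctrl libraries (log2 fold change 0.15, SE 0.15, adjusted p = 0.804 in edgeR). In all 3 both dKO values were above both Ctrl values. Mrpl36 had 62.9 and 78.8 CPM in the dKO libraries, against 97.9 and 68.4 CPM in the Ctrl libraries (log2 fold change -0.23, SE 0.22, adjusted p = 0.799 in edgeR), with dKO 2 above Ctrl 2, so the groups overlapped.

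Mrpl11, a stalk-base protein where translation factors bind, had 30.99 and 36.1 CPM in the dKO libraries, against 32.8 and 24.4 CPM in the Ctrl libraries (log2 fold change 0.23, SE 0.23, adjusted p = 0.806 in edgeR). Mrpl12, a stalk protein also described as a partner of the mitochondrial RNA polymerase, had 24.4 and 25.6 CPM in the dKO libraries, against 31.9 and 20.5 CPM in the Ctrl libraries (log2 fold change -0.069, SE 0.26, adjusted p = 0.962 in edgeR). Mrpl11 and Mrpl12 both overlapped between the groups. Mrpl45, a large-subunit protein near the exit of the peptide tunnel, had 2.55 and 5.49 CPM in the dKO libraries, against 5.14 and 5.97 CPM in the Ctrl libraries (log2 fold change -0.47, SE 0.44, adjusted p = 0.794 in edgeR), and dKO 1 alone was low.

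Mrpl20, the least abundant gene of the set in TPM, had 1.03 and 0.728 CPM in the dKO libraries, against 0.646 and 0.542 CPM in the Ctrl libraries (log2 fold change 0.56, SE 0.84, adjusted p = 0.888 in edgeR). Its interval ran from -1.37 to 2.49 on the log2 scale. Mrpl54 had the largest positive log2 fold change, at 1.805 and 1.56 CPM in the dKO libraries, against 1.41 and 0.783 CPM in the Ctrl libraries (log2 fold change 0.61, SE 0.64, adjusted p = 0.817 in edgeR), and was chosen after its values were seen.

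Mrpl53 and Mrps34 did not pass the filter on the whole-number counts. Mrpl53 had 0 counts in every library, while the RSEM tables gave 6.91 and 3.53 TPM in the dKO libraries, against 2.51 and 1.85 TPM in the Ctrl libraries. Mrps34 had 1 and 2 counts in dKO and 2 and 6 counts in Ctrl, with 26.5 and 32.7 TPM in the dKO libraries, against 39.5 and 34.5 TPM in the Ctrl libraries. On GRCm38 the exons of Mrps34 overlap Mapk8ip3 and Nme3, and those of Mrpl53 overlap Ccdc142os and Gm42688. In the fit on RSEM expected counts, Mrpl53 had a log2 fold change of 1.19 (SE 0.78, edgeR adjusted p = 0.672) and Mrps34 one of -0.33 (SE 0.29, edgeR adjusted p = 0.778).

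The way reads were assigned mattered for some genes. The whole-number count divided by the RSEM expected count had a median of 2.06 over the 76 genes, 64 lay within 1.5 times of it, 5 above and 7 below. Mrpl23 stood farthest above at 10.2, and Mrpl12 was below at 0.536. An exon overlap with another gene was found for 7 of the 12 genes outside 1.5 times, all 7 of them below and Mrpl12 (with Gm16755) among them, and for 24 of the 64 inside. Mrpl23 and the other genes above had none. Mrpl23, the counterpart of a tunnel-exit protein, had 11.98 and 15.6 CPM in the dKO libraries, against 15.6 and 10.8 CPM in the Ctrl libraries (log2 fold change 0.065, SE 0.29, adjusted p = 0.973 in edgeR). On the TPM scale Mrpl23 had 6.93 and 36.2 TPM in the dKO libraries, against 12.2 and 0.47 TPM in the Ctrl libraries. Its counts put all 4 libraries close together, and its TPM did not. Of the 73 genes in both fits, 3 (Mrpl22, Mrpl23 and Mrps18b) had log2 fold changes that differed by more than 0.5 between whole-number and RSEM counts, none passed in either, and the median absolute difference was 0.036.

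The replicates of a group differed from each other as a set. In CPM, dKO 2 was above dKO 1 for 56 of 74 genes (75.7%, median log2 difference 0.171), and Ctrl 1 was above Ctrl 2 for 58 (78.4%, median 0.223). Over all 13904 genes tested, dKO 2 was above dKO 1 for 6941 and Ctrl 1 above Ctrl 2 for 6838. Between groups the direction followed which libraries were set side by side. dKO 1 was below Ctrl 1 for 63 genes and above Ctrl 2 for 36, while dKO 2 was below Ctrl 1 for 47 and above Ctrl 2 for 58. These pairs share libraries, and the subunits had the same sign in each within-group pair. The medians for the large and the small subunit were 0.176 and 0.169 between the dKO libraries and 0.256 and 0.163 between the Ctrl libraries. For dKO 1 over Ctrl 2 the signs differed, with a median of 0.047 for the large and -0.085 for the small subunit. In the remaining pairs between groups the subunits had the same sign.

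**Figure D4:**
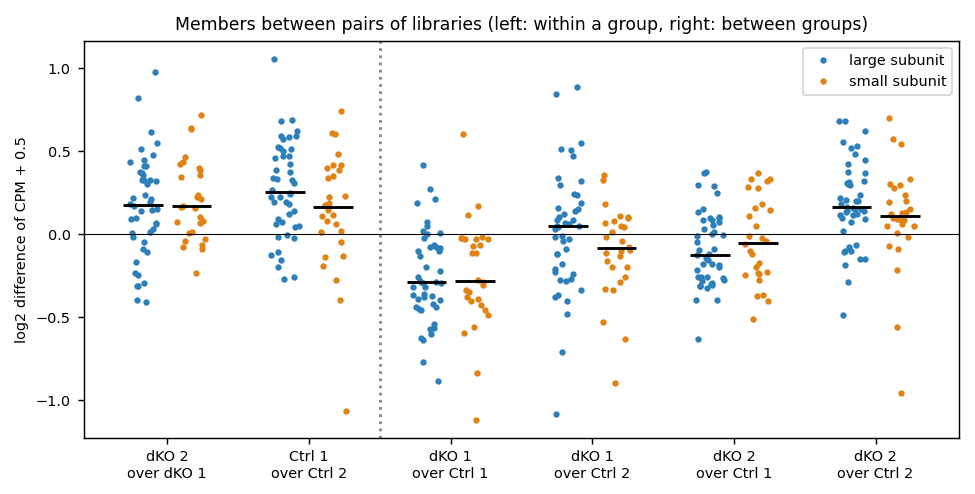
Log2 difference of CPM + 0.5 (y axis) of each of the 74 tested genes between 2 libraries, for the 2 pairs within a group (left of the dotted line) and the 4 pairs between groups, with large-subunit genes in blue and small-subunit genes in orange. Black bars are medians. The within-group pairs are set as the higher over the lower library, and their points lie mostly above 0.

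Other gene families also varied over these libraries. Cytosolic ribosomal protein genes, the nearest family by function, summed to 23586 and 43044 TPM in dKO, against 30057 and 20778 TPM in Ctrl, with dKO 2 above dKO 1 for 69 of 73 genes and Ctrl 1 above Ctrl 2 for 70. Their median log2 fold change was 0.33 with 70 of 73 positive. In edgeR 0 were called, against 0.316% of all genes tested called higher and 0.295% lower. Nuclear genes for respiratory chain and ATP synthase subunits summed to 10966 and 12751 TPM in dKO, against 13407 and 11297 TPM in Ctrl. Their median log2 fold change was 0.02 over 72 genes, and 0 were called. The part of these library differences in the values of the mitochondrial ribosomal protein genes was not tested.

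**Figure D5:**
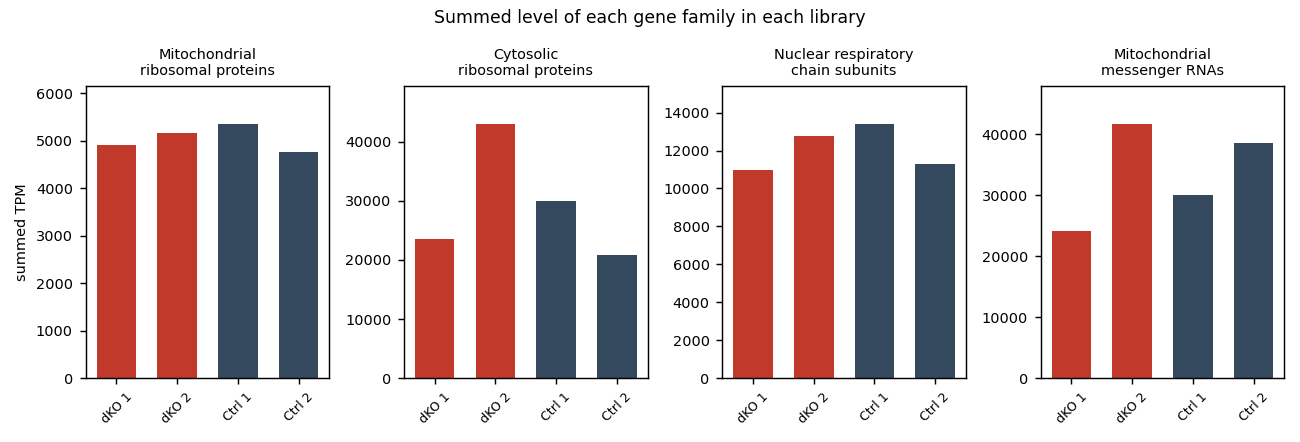
Summed TPM (y axes, each from 0) of 4 gene families in the 4 libraries, with dKO in red and Ctrl in blue. The mitochondrial ribosomal proteins run from 4757 to 5356 TPM, and the cytosolic ribosomal proteins from 20778 to 43044 TPM with the highest bar in dKO 2.

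The ribosomal RNAs of the mitochondrion varied between replicates. mt-Rnr1 had 57.5 and 179.7 CPM in the dKO libraries, against 85.2 and 212 CPM in the Ctrl libraries (log2 fold change -0.33, SE 0.54, adjusted p = 0.898 in edgeR). mt-Rnr2 had 1141 and 3804 CPM in the dKO libraries, against 2821 and 1765 CPM in the Ctrl libraries (log2 fold change 0.11, SE 0.48, adjusted p = 0.971 in edgeR). Both overlapped between the groups, and in both the replicates differed by more than the groups. The 12 tested mitochondrial messenger RNAs had a median log2 fold change of 0.002, with 0 called, against 0.316% of all genes higher and 0.295% lower. mt-Cytb, with the smallest p of them, had 1293 and 2038 CPM in the dKO libraries, against 1949 and 2590.1 CPM in the Ctrl libraries (log2 fold change -0.45, SE 0.24, adjusted p = 0.584 in edgeR).

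The 7 tested proteins of the mitochondrial ribosome with other symbols (Dap3, Ptcd3, Chchd1, Aurkaip1, Gadd45gip1, Ict1 and Mrp63) gave 0 calls and a median log2 fold change of -0.05. Of all genes tested, 0.316% were called higher and 0.295% lower. Aurkaip1, a small-subunit protein, had 92.6 and 82.9 CPM in the dKO libraries, against 74.4 and 60.7 CPM in the Ctrl libraries (log2 fold change 0.38, SE 0.18, adjusted p = 0.538 in edgeR). The dKO values of Aurkaip1 were the higher ones, without passing. Ptcd3, a pentatricopeptide repeat protein of the small subunit, had 63.5 and 50.8 CPM in the dKO libraries, against 74.7 and 59.1 CPM in the Ctrl libraries and overlapped between groups (log2 fold change -0.23, SE 0.20, adjusted p = 0.781 in edgeR). Ict1, a large-subunit protein that can release stalled peptides, had 10.8 and 9.37 CPM in the dKO libraries, against 7.43 and 8.77 CPM in the Ctrl libraries (log2 fold change 0.31, SE 0.29, adjusted p = 0.786 in edgeR).

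Of 21 tested genes for assembly of the mitochondrial ribosome and processing of its RNA, 0 were called. An unadjusted edgeR p under 0.05 was found for 2 of them (9.52%), against 10.6% of all genes tested. Nsun4, which methylates mt-Rnr1 and joins the subunits with Mterf4, had 1.87 and 1.49 CPM in the dKO libraries, against 3.96 and 3.13 CPM in the Ctrl libraries (log2 fold change -1.08, SE 0.46, adjusted p = 0.463 in edgeR). Ddx28, a helicase of large-subunit assembly, had 34.4 and 39.6 CPM in the dKO libraries, against 48.9 and 51.4 CPM in the Ctrl libraries (log2 fold change -0.44, SE 0.19, adjusted p = 0.469 in edgeR). In both, both dKO values were below both Ctrl values in CPM, and neither passed. In TPM Nsun4 overlapped between the groups, with 7.09 and 6.75 TPM in the dKO libraries, against 6.85 and 10.7 TPM in the Ctrl libraries. Its whole-number count divided by its RSEM expected count was 0.467, so the assignment of its reads is uncertain. Rpusd3, a pseudouridine synthase family member, had 22.8 and 23.9 CPM in the dKO libraries, against 13.9 and 20.2 CPM in the Ctrl libraries (log2 fold change 0.45, SE 0.26, adjusted p = 0.613 in edgeR).

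Of 15 tested mitochondrial translation factors, 0 were called. An unadjusted edgeR p under 0.05 was found for 4 of them (26.7%), against 10.6% of all genes tested, and the difference was not tested. Mtrf1l, the release factor that ends mitochondrial translation at stop codons, came closest with 18.2 and 21.8 CPM in the dKO libraries, against 8.63 and 7.11 CPM in the Ctrl libraries (log2 fold change 1.34, SE 0.26, adjusted p = 0.0834 in edgeR). Both dKO values of Mtrf1l were above both Ctrl values. Lrpprc, which stabilises mitochondrial messenger RNAs, had 88.2 and 81.4 CPM in the dKO libraries, against 131 and 110.5 CPM in the Ctrl libraries (log2 fold change -0.51, SE 0.17, adjusted p = 0.322 in edgeR), and Mtrf1, a paralogue of Mtrf1l, had 7.001 and 5.56 CPM in the dKO libraries, against 10.4 and 10.5 CPM in the Ctrl libraries (log2 fold change -0.73, SE 0.30, adjusted p = 0.435 in edgeR). The groups did not overlap in CPM in these 3 genes, which were named for their small p, and none of them passed. Over the 15 genes, both dKO libraries lay above both Ctrl libraries in CPM for 4 (26.7%), against 21.7% of all genes tested. They lay below for 5 (33.3%), against 19.9% of all genes.

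Median fold changes lay close together with and without the promoter letters. The 36 tested genes with a core in a promoter had a median log2 fold change of -0.034, and the 30 matched genes without one -0.074. With the longer motif the median was -0.084 over 12 genes, against -0.055 over the other 54. The 13 tested genes with at least 2 cores had a median of -0.057 and a range from -0.61 to 0.41. Over all tested genes with a RefSeq promoter, 0.476% of the 3150 with a core were called, against 0.614% of the 6025 without one, and the medians were 0.017 and -0.006. No test was made of these differences.

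By GRCm38 gene positions, 16 of the genes had a head-to-head partner, a protein-coding gene on the other strand that starts 0 to 500 bases upstream. Mrpl46 and Mrps11 are not among the 16, since by these positions each starts inside the other, unlike the RefSeq starts given above. The 15 tested partners gave 0 calls, against 0.316% of all genes tested called higher and 0.295% lower. The smallest adjusted p among the partners was 0.579 in edgeR for Ncapd2, the partner of Mrpl51. Fau, which encodes a cytosolic ribosomal protein and starts 59 bases from Mrpl49, had a log2 fold change of 0.56 (adjusted p = 0.731 in edgeR), against -0.080 for Mrpl49. Ncapd2 and Fau were chosen after their values were seen.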

How the data were processed

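Gene counts, as whole numbers, were deposited by the authors for every library, beside RSEM expected counts and TPM, per the file headers. The submitters' processing notes list TopHat2 2.1.1, HTSeq 0.6.1 and RSEM 1.3.0 among the tools, with build mm9. The sources used here give neither annotation nor strand setting. Rows naming no gene were left out (reads outside genes 18.1% to 24.3%, ambiguous reads 2.20% to 2.34%).

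Counts were tested across the whole table with edgeR 4.0.16 (robust quasi-likelihood F test, TMM, filterByExpr with a minimum count of 10) in R 4.3.3, with Benjamini-Hochberg adjustment over 13904 genes and a threshold of 0.05. The procedure was tested on simulated data. SE is the absolute log2 fold change over the square root of F. Levels between genes use TPM and those within a gene use CPM. Positions are GRCm38 (GENCODE M21), matched by Ensembl ID for 75 genes. Alternatives were other scalings and filters, DESeq2 1.42.0, limma-voom (limma 3.58.1), a fit that is not robust, rounded RSEM expected counts, a replicate block and leaving out each library.

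The genes and lists were chosen with earlier results of these data known. Genes were named by the 8 smallest p, the 3 highest and 2 lowest TPM per subunit, a place within 5 Mb of Gabpb1 or Gabpb2, their role, a failed filter, or the 4 counts farthest from RSEM. Outside the set, up to 3 genes per list with the smallest p were named. Neither label nor file says that the replicates came from separate litters. The design states biological replicates.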

Additional observations from a re-analysis of the deposited data

How the results depend on the processing

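Under every alternative run, 0 of the fitted genes were called in either direction, with 72 to 75 genes fitted and a smallest adjusted p between 0.331 (without Ctrl replicate 2) and 0.762 (with the replicate block). Over all genes, the numbers higher and lower were 44 and 41 in the fit reported, 256 and 303 with no filter, which also moved the median of all genes to 0.10, 74 and 73 with a stricter filter, 183 and 215 with DESeq2, and 94 and 93 without Ctrl replicate 2. The replicate numbers are not said to pair litters, so the numbers were not taken as pairs. Same-numbered libraries did not deviate together (r = -0.0544 across genes), but 2 libraries a group cannot decide whether they were paired. With the replicate block, 48 genes were higher and 52 lower.

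Without single libraries the median log2 fold change ran from -0.143 to 0.095 for the large subunit and from -0.150 to 0.044 for the small subunit, and it was positive only without Ctrl replicate 1, for both subunits. The number of positive genes, 28 of 74, was then 50, and 18 without Ctrl replicate 2. The difference of the subunit medians ran from -0.096 to 0.052 over all alternatives. Those 2 ends came from genes whose count to RSEM ratio was within 1.5 times the median, an alternative added after seeing the data, and from leaving out Ctrl replicate 1.

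Of 389 refits of 28 named genes, 366 kept their direction and 23 turned, in 12 genes. Outside the left-out libraries these were Mrpl9 (0.010) and Mrps18b (0.013) with library size only, Mrps18a with RLE (-0.000499) and DESeq2 (-0.000508), and Mrps30 with RSEM counts (-0.015). Over the left-out libraries the log2 fold changes that turned ran as Mrpl12 -0.35 to 0.28, Mrpl23 -0.18 to 0.36, Mrpl36 -0.47 to 0.048, Mrpl9 -0.21 to 0.15, Mrps12 -0.32 to 0.070, Mrps15 -0.48 to 0.13, Mrps18a -0.077 to 0.099, Mrps18b -0.22 to 0.22, Mrps18c -0.22 to 0.23, Mrps21 -0.48 to 0.14, Mrps22 -1.12 to 0.18 and Mrps30 -0.038 to 0.076. The cause was not tested.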
